A study of Homo sapiens with 12 samples.

Results

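The axon guidance ligands and receptors of the semaphorin, ephrin, slit and netrin systems were followed by their RNA levels in 2 kinds of human stem cell-derived neuron. Members were chosen by symbol from both deposited tables, namely the semaphorins SEMA3 to SEMA7 with the plexins and neuropilins, the ephrins with the Eph receptors, the slits with the robos, and the netrins with UNC5A to UNC5D, DCC, NEO1, DSCAM and DRAXIN. The rule found 72 identifiers with 71 symbols among the 19329 identifiers of the series. Of these, 70 were in the table labelled as motor neurons and all 72 in the table labelled as cortical neurons. ROBO4 was the only symbol of the rule in the GENCODE 44 annotation that neither table listed. EPHB6 appeared under 2 identifiers, 1 of them outside the main chromosomes of that annotation.

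The iMNs were motor neurons made from an iPSC line carrying Td-Tomato under the HB9 promoter, and they were isolated by FACS for that reporter, so HB9-driven fluorescence defined the cells. The i3Ns, labelled as cortical neurons, were made from H1, an established human ES cell line engineered for inducible expression of NGN2, a transcription factor whose expression drives excitatory neuron fate. Each cell type gave 3 SCR libraries from cells with a lentiviral scrambled shRNA and 3 SMN-KD libraries from cells with a lentiviral shRNA against SMN1/2, 12 libraries in all, so every library came from cells that carried an shRNA. Since iMNs and i3Ns each came from a single line and a single protocol, cell type, line and protocol cannot be told apart.

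Axon guidance cues are secreted or membrane-bound proteins that attract or repel growing axons through receptors on the growth cone. Semaphorins signal through plexins, with neuropilins as the binding subunit for most class 3 semaphorins. Ephrins and Eph receptors signal at contacts between cells in both directions, slits repel axons through robos, and netrins attract through DCC or repel when UNC5 receptors take part. In the spinal cord these systems steer motor axons out of the cord and into the limb, and in the cortex they steer callosal and corticofugal axons.

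The level used throughout is the mean normalized count, which is the authors' mean over the 6 libraries of a cell type, SCR and SMN-KD pooled. A knockdown effect that differed between the cell types would enter their ratios and cannot be told apart there. No library's own value, SD or n accompanies it, total counts per library were not used here, and no test between groups could be made, so every difference given is a description. The SMN-KD comparison columns of the tables hold the authors' own results and were not used. Because the tables were normalized separately, each ratio of i3N to iMN was divided by the median ratio of the 12071 genes that reached 100 in both tables, which was 0.10 on the log2 scale. In bulk samples, fewer cells of a type and less RNA per cell cannot be told apart.

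The labels were set against marker genes. All 5 neuronal markers were above 100 in both tables, with STMN2 at 81082 in iMNs and 84089 in i3Ns. Of 9 cortical glutamatergic markers, 2 reached 100 in iMNs and 7 in i3Ns, where the vesicular glutamate transporter SLC17A7 stood at 6490 against 50.1 in iMNs, and NEUROD6 was not listed. All 8 motor neuron markers were listed in both tables. Among them SLC5A7, the choline transporter, was 3.67-fold higher in iMNs, but the transcription factor genes MNX1, ISL1, ISL2 and LHX3 were at least 4-fold higher in i3Ns, with ISL1 at 1663 in iMNs and 14299 in i3Ns. The HB9 gene, MNX1, stood at 430 in the iMNs sorted by its promoter and at 2279 in i3Ns, so the motor neuron list did not separate the cell types in the direction of the labels. The 5 markers of progenitors and dividing cells summed to 6382 in iMNs and 30635 in i3Ns, of which NES alone gave 6043 and 29662, the 6 glial markers to 387 and 1145 with GFAP, AQP4 and SOX10 not listed, the 4 mesenchymal markers to 2203 and 6498, and the 3 inhibitory neuron markers to 481 and 170. The progenitor genes SOX2 and PAX6 stood at 53.9 and 234 in iMNs and 38.9 and 102 in i3Ns, and the markers of dividing cells MKI67 and TOP2A at 28.3 and 22.5 in iMNs and 522 and 311 in i3Ns. The part of these other cells in the ratios below was not tested.

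Axon guidance genes were broadly expressed in both neuron types. In iMNs, 63 of 70 listed members reached a mean normalized count of 100, 90.0% of them, beside 77.9% of all 16406 genes in the table. In i3Ns, 62 of 72 did, 86.1%, beside 67.3% of all 19016 genes. At a level of at least 1000 the shares were 72.9% of members and 47.1% of all genes in iMNs, and 66.7% and 40.8% in i3Ns. The median member stood at 2600 in iMNs and 2787 in i3Ns, and the median gene at 875 and 577. None of these shares and medians was corrected for transcript length, and the part of length in the gap to all genes was not tested. By mean normalized count the highest member was the semaphorin receptor PLXNA1 in iMNs, at 26253, and its relative PLXNA4 in i3Ns, at 19330. Divided by transcript length in kb, PLXNA1 was still highest in iMNs, at 2820. In i3Ns the highest was then NRP1, at 2746, with PLXNA4 at 1492.

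Single members differed between the cell types in both directions. Of 65 members that were listed in both tables and reached 100 in at least 1 of them, 8 were at least 4-fold higher in i3Ns and 7 at least 4-fold higher in iMNs, 12.3% and 10.8% of members. Over all 13317 genes with the same filter, 3.21% were at least 4-fold higher in i3Ns and 4.83% in iMNs. NTN4, SEMA4A and ROBO3 on the iMN side and EPHB4 on the i3N side passed the filter only through the cell type where they were high. With 100 required in both tables the counts were 7 in i3Ns and 4 in iMNs. The share of all genes under that stricter filter was not computed, so these counts cannot be set against 3.21% and 4.83%. Only 29 members, 44.6%, lay within 2-fold, beside 78.6% of all genes. The median log2 ratio of the members was -0.01, so they spread to both sides with no shift toward either cell type. Their median absolute log2 ratio was 1.23, against 0.44 for all genes. Across the 70 members listed in both tables the levels had a Spearman's rho of 0.77, and across all 16093 shared genes 0.92, both as descriptions across genes, which share libraries and are not replicates.

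**Figure D1:**
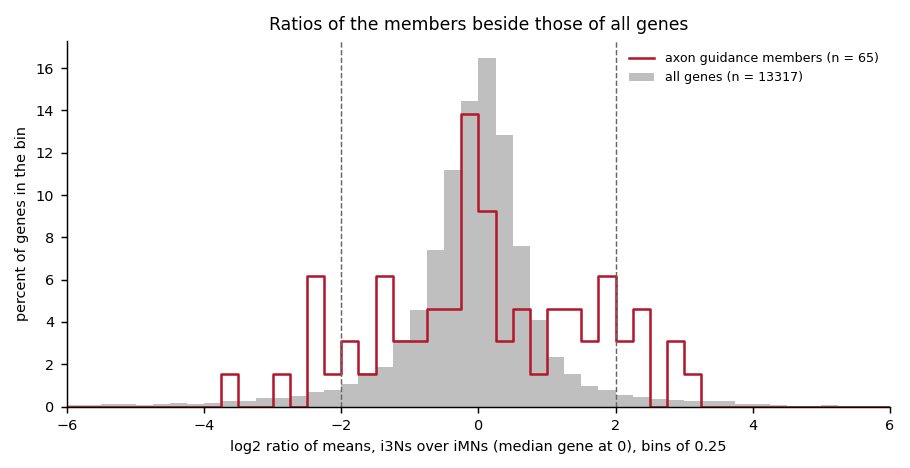
Distribution of the log2 ratio of mean normalized counts, i3Ns over iMNs, for all 13317 genes (grey bars) and the 65 axon guidance members (red line), as the percent of genes in each bin. Dashed lines mark 4-fold, past which a larger share of members than of all genes lies on each side. The members end at -3.69 and 3.21, while all genes reach further out on both sides. The axis ends at -6 and 6, and genes beyond it are not drawn.

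Both ligands and receptors were among the members with large ratios. Of 31 ligands that passed the filter, 5 were at least 4-fold higher in iMNs (NTN4, SLIT1, SEMA5A, SEMA4A and NTN1) and 3 in i3Ns (SEMA3C, SEMA3D and SEMA3F). Of 34 receptors, 2 were at least 4-fold higher in iMNs (ROBO3 and UNC5A) and 5 in i3Ns (EPHA8, EPHA5, UNC5C, EPHB4 and PLXNA4). At 2-fold the counts in iMNs and i3Ns were 8 and 8 for ligands and 8 and 12 for receptors, and the median log2 ratios were -0.04 and 0.09. Of all genes 78.6% lay within 2-fold, and their share past 2-fold in each direction was not computed. The 5 members listed in both tables that did not pass the filter were EFNA1, EFNA4, NTN3, NTN5 and PLXNB3. These counts are small and carry no test. Close to the limit, PLXNA4 stood just inside at 4.09-fold, and EPHB3 and PLXNC1 just outside, 3.99-fold and 3.97-fold higher in iMNs.

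**Figure D2:**
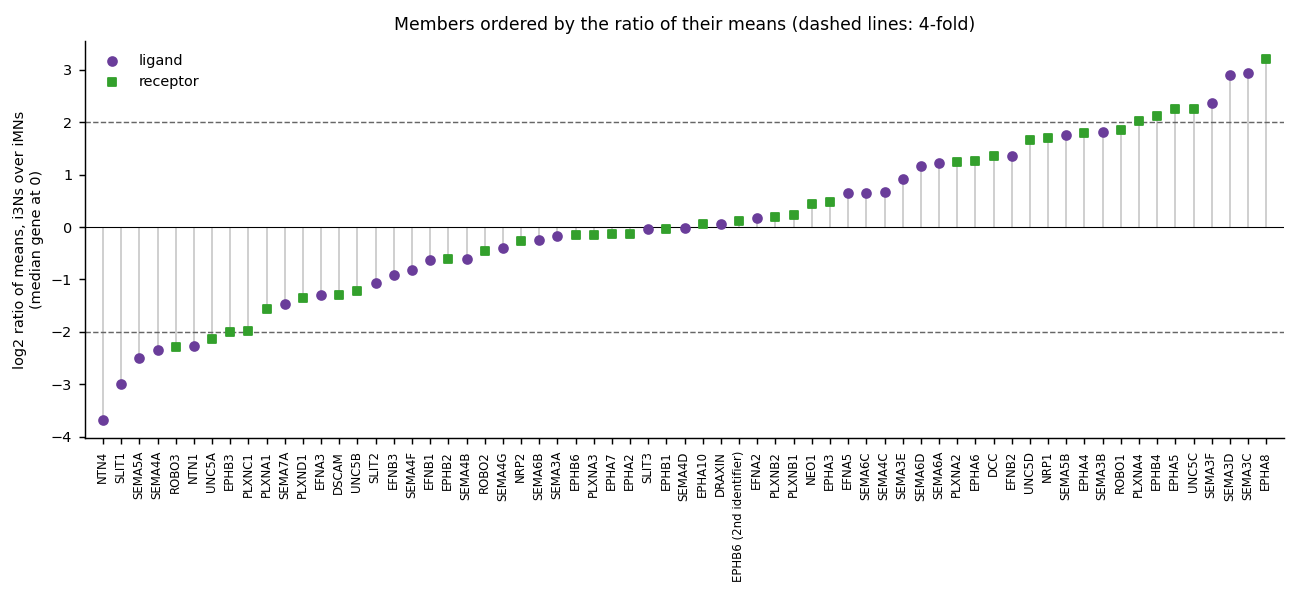
Log2 ratio of the mean normalized counts, i3Ns over iMNs, for the 65 members that passed the filter, in order, with ligands as circles and receptors as squares. Dashed lines mark 4-fold, which 7 members passed on the iMN side, from NTN4 at -3.69 to UNC5A at -2.14, and 8 on the i3N side, from PLXNA4 at 2.03 to EPHA8 at 3.21.

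To compare genes with each other, the mean normalized count was divided by the length of the MANE Select transcript, the reference transcript agreed for each human gene, and the result is called the level per kb. By this level the leading member was the same in both cell types in 4 of 15 families, namely SEMA4C, PLXNB2, NRP1 and NEO1. In the other 11 families different members had the highest value, by small margins for the ephrin-A ligands in i3Ns and the netrins in iMNs. Leads were also narrow in i3Ns for SLIT3 over SLIT2 (1009 and 912 per kb) and EPHB1 over EPHB2 (668 and 581). The same held there for EPHA5 over EPHA4 (1474 and 1295) and SEMA6D over SEMA6A (2071 and 1735). With no spread between libraries at hand, such orders cannot be judged. With no division by length, 7 families had the same leading member, since NTN1, UNC5C and EPHB2 then led in both cell types.

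**Figure D3:**
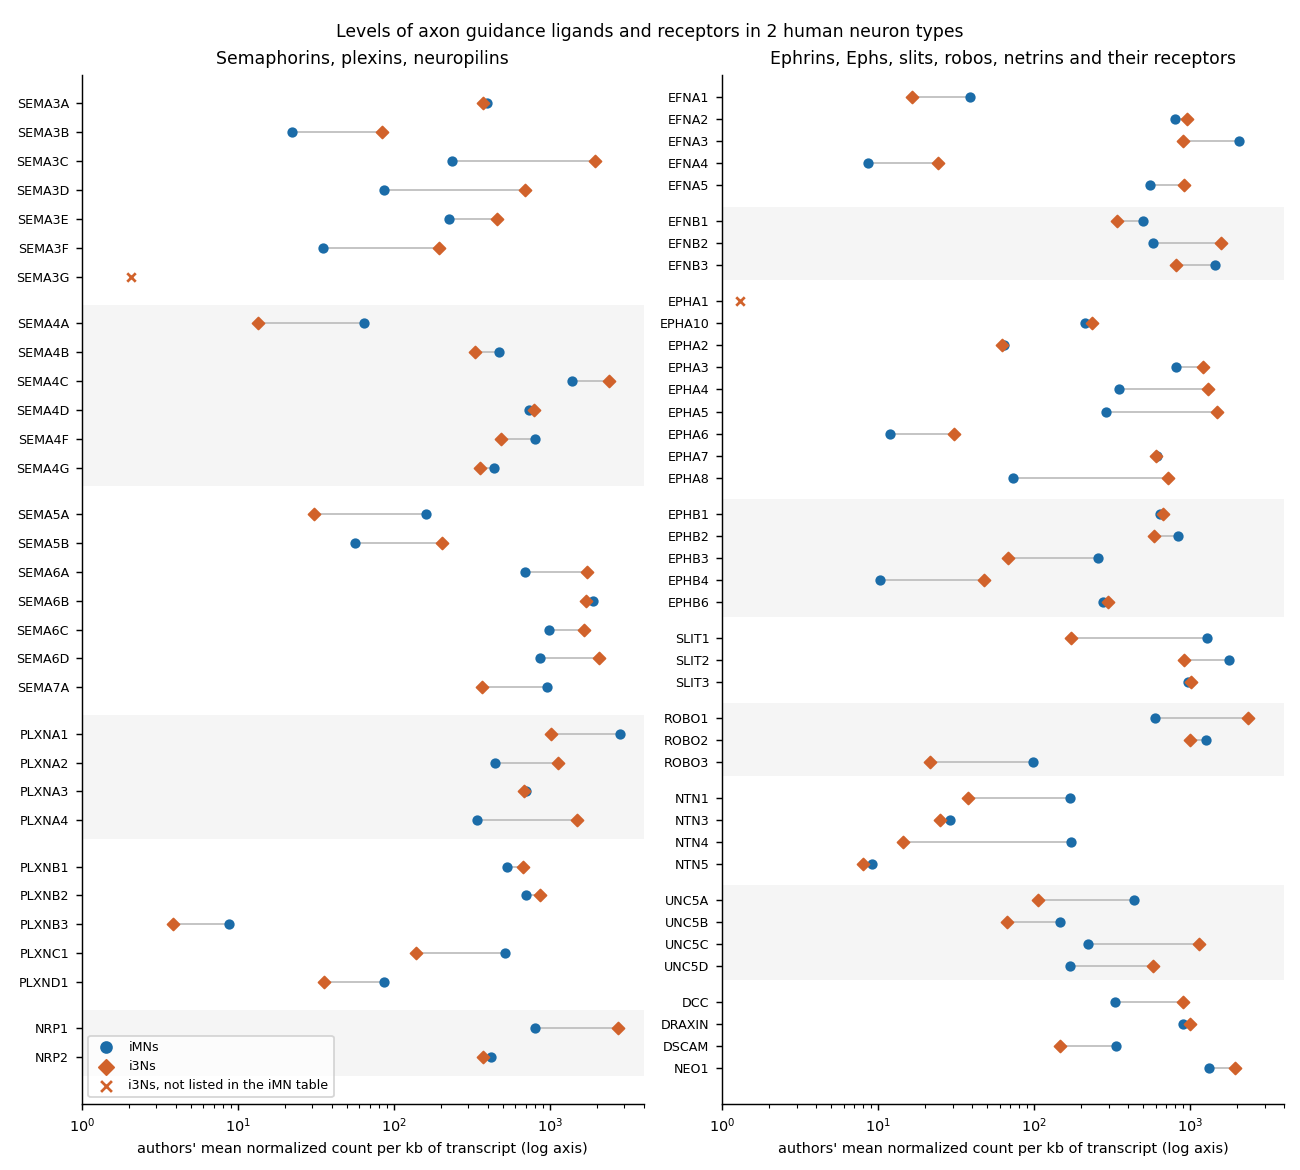
Level per kb (the authors' mean normalized count per kb of transcript, log axis) of each member in iMNs (blue circles) and i3Ns (orange diamonds), grouped by family, with no error bars because only means over libraries are used. The widest gaps are those of NTN4, EPHA8, SLIT1, SEMA3C and SEMA3D, and crosses mark EPHA1 and SEMA3G, which the iMN table does not list.

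The class 3 semaphorins, the secreted members that repel or attract axons through neuropilins and plexins, had the largest shift toward i3Ns of the semaphorin classes. Their summed level per kb was 999 in iMNs and 3735 in i3Ns, 3.49-fold higher in i3Ns after scaling. SEMA3C (chr7:80742538-80922359, minus strand) had a mean normalized count of 1152 in iMNs and 9449 in i3Ns, a 7.65-fold ratio. SEMA3D (chr7:84995553-85187056, minus strand) stood at 586 and 4674, 7.44-fold higher in i3Ns. SEMA3F (chr3:50155045-50189075, plus strand) stood at 126 and 700, 5.19-fold higher. By contrast SEMA3A, a repellent of motor and sensory axons, was nearly level at 3183 and 3007. It held 39.3% of the class in iMNs and 9.92% in i3Ns, where SEMA3C held 51.9%. SEMA3E stood at 1647 and 3310 and SEMA3B at 71.2 and 267, while SEMA3G was listed in i3Ns alone, at 10.4.

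SEMA3A, SEMA3C, SEMA3D and SEMA3E lie within 4.44 Mb of chromosome 7 (chr7:80742538-85187056), a stretch that holds 7 protein-coding genes. In order of position, the log2 ratio of i3N to iMN was 2.94 for SEMA3C, 0.91 for SEMA3E, -0.18 for SEMA3A and 2.90 for SEMA3D. The outermost genes of the 4, SEMA3C and SEMA3D, thus had similar ratios, above those of SEMA3E and SEMA3A between them.

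Among class 4 semaphorins, which are membrane-bound and signal mainly through B plexins, SEMA4C led in both cell types, with levels per kb of 1392 in iMNs and 2377 in i3Ns. The next were SEMA4F in iMNs, at 807 per kb, and SEMA4D in i3Ns, at 784 per kb. SEMA4B and SEMA4G had mean normalized counts of 1779 and 1958 in iMNs and 1247 and 1594 in i3Ns. SEMA4A (chr1:156147366-156177752, plus strand) was the exception in ratio, with a mean normalized count of 207 in iMNs and 43.6 in i3Ns, 5.09-fold higher in iMNs. The summed level per kb of the class was 3905 in iMNs and 4347 in i3Ns, 1.04-fold after scaling.

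In classes 5 to 7, SEMA6B led in iMNs with 1888 per kb, followed by SEMA6C with 987. In i3Ns SEMA6D led with 2071 per kb, closely followed by SEMA6A, SEMA6B and SEMA6C, at 1735, 1711 and 1652. SEMA6A and SEMA6D, transmembrane ligands of A plexins, had mean normalized counts of 4754 and 5068 in iMNs and 11845 and 12235 in i3Ns. SEMA5A (chr5:9035033-9546075, minus strand), a transmembrane semaphorin with thrombospondin repeats, ran the other way at 1893 in iMNs and 359 in i3Ns, 5.64-fold higher in iMNs. Its relative SEMA5B stood at 275 and 989, 3.35-fold higher in i3Ns. SEMA7A, the membrane-anchored ligand of PLXNC1, stood at 3218 and 1245, and PLXNC1 itself at 3844 and 1037, both higher in iMNs.

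The A plexins, the signalling receptors for class 3 and class 6 semaphorins, kept nearly the same summed level per kb, 4313 in iMNs and 4325 in i3Ns, with a different make-up. PLXNA1 held 65.4% of that sum in iMNs and 23.5% in i3Ns, and PLXNA4 held 7.89% and 34.5%. PLXNA4 (chr7:132123340-132648688, minus strand) had a mean normalized count of 4412 in iMNs and 19330 in i3Ns, 4.09-fold higher in i3Ns. PLXNA1 stood at 26253 and 9479, 2.97-fold higher in iMNs. The ratio of PLXNA4 to PLXNA1 per kb, into which no scaling between the tables enters, was 0.121 in iMNs and 1.46 in i3Ns. PLXNA2 stood at 5147 and 13025, and PLXNA3 at 7680 and 7437, so the latter was nearly level.

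PLXNB2 and PLXNB1, receptors of class 4 semaphorins, led the remaining plexins in both cell types. Their levels per kb were 701 and 533 in iMNs and 863 and 669 in i3Ns. PLXNB3 was low in both, with mean normalized counts of 54.4 and 23.5. PLXND1, the receptor of SEMA3E, stood at 594 and 248. Of the neuropilins, NRP1 had a mean normalized count of 4488 in iMNs and 15489 in i3Ns, 3.22-fold higher in i3Ns, and NRP2 stood at 2798 and 2484. The ratio of NRP1 to NRP2 per kb was 1.89 in iMNs and 7.35 in i3Ns.

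Among the ephrin-A ligands, which are tethered to the membrane by a lipid anchor, EFNA3 led in iMNs with 2050 per kb, 59.6% of the family. EFNA2 was next with 793 per kb. In i3Ns EFNA2, EFNA5 and EFNA3 stood close together at 954, 916 and 895 per kb, and with no spread between libraries at hand their order there cannot be judged. EFNA3 had mean normalized counts of 3725 and 1625 and EFNA5 of 2943 and 4923. EFNA1 and EFNA4 were under 100 in both tables, at 59.7 and 25.6 and at 10.8 and 30.4. EFNA1, EFNA3 and EFNA4 lie within 71.2 kb of chromosome 1 (chr1:155063737-155134899), and of these 3 neighbours only EFNA3 passed 100.

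The transmembrane ephrin-B ligands also changed their lead. EFNB3 held 57.2% of the family per kb in iMNs and 29.8% in i3Ns, and EFNB2 held 23% and 57.6%. EFNB2 had a mean normalized count of 2870 in iMNs and 7823 in i3Ns, and EFNB3 of 4593 and 2609. EFNB1 stood at 1630 and 1126. The summed level per kb of the family was 2496 and 2718, 1.02-fold after scaling, so the make-up differed and the sum hardly did.

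The EphA receptors summed to 2420 per kb in iMNs and 5626 in i3Ns, 2.17-fold higher in i3Ns after scaling. EPHA8 (chr1:22563489-22603595, plus strand) had the largest ratio of all members in that direction, with a mean normalized count of 365 in iMNs and 3626 in i3Ns, 9.26-fold higher. EPHA5 (chr4:65319563-65670495, minus strand), a receptor of topographic maps, stood at 2402 and 12299, 4.78-fold higher in i3Ns. EPHA4, which steers motor axons in the limb and corticospinal axons, stood at 2205 and 8236, 3.49-fold higher in i3Ns. These were not matched by every relative. EPHA7 stood at 4071 and 3960 and EPHA2 at 251 and 245, and EPHA3, the leading EphA receptor of iMNs with 812 per kb, stood at 4640 and 6910. EPHA6 and EPHA10 had 193 and 1151 in iMNs and 495 and 1277 in i3Ns, and EPHA1 was listed in i3Ns alone, at 4.34.

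The EphB receptors had no such shift in sum, with 2006 per kb in iMNs and 1662 in i3Ns. EPHB2 and EPHB1 led in both, EPHB2 ahead in iMNs with 828 against 637 per kb and EPHB1 ahead in i3Ns with 668 against 581. EPHB3 had a mean normalized count of 1075 in iMNs and 289 in i3Ns. EPHB4 (chr7:100802565-100827523, minus strand), better known from blood vessels, stood at 44.4 and 207, 4.34-fold higher in i3Ns. It overlaps SLC12A9 on the opposite strand, which stood at 1073 and 1195, and whether strand was used in the counting is not given in the sources used here. The 2 identifiers of EPHB6, a receptor without kinase activity, stood at 499 and 610 in iMNs and 477 and 712 in i3Ns, and reads shared by such copies may have been split between them.

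The slits summed to more in iMNs and their robo receptors to more in i3Ns. The 3 slits, secreted repellents, summed to 4006 per kb in iMNs and 2092 in i3Ns, 2.05-fold higher in iMNs after scaling. SLIT1 (chr10:96998038-97185959, minus strand) had a mean normalized count of 10112 in iMNs and 1361 in i3Ns, a 7.96-fold ratio. A separate readthrough gene, ARHGAP19-SLIT1, was listed at 102 and 21.5. SLIT2 stood at 14244 and 7344 and SLIT3 at 9400 and 9801. SLIT1 therefore held 31.7% of the slit level per kb in iMNs and 8.17% in i3Ns, and SLIT3 held 24.2% and 48.2%. SLIT2 held 44.2% and 43.6%, close behind SLIT3 in i3Ns.

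The robos summed to 1960 per kb in iMNs and 3333 in i3Ns, 1.59-fold higher in i3Ns. ROBO1 had a mean normalized count of 4129 in iMNs and 16076 in i3Ns, 3.63-fold higher in i3Ns, and ROBO2 of 11411 and 8934, 1.37-fold higher in iMNs. The ratio of ROBO1 to ROBO2 per kb was 0.471 in iMNs and 2.34 in i3Ns, so the leading robo was ROBO2 in iMNs and ROBO1 in i3Ns. Both are very long genes, spanning 1171 kb and 1743 kb of chromosome 3. ROBO3 (chr11:124865432-124881471, plus strand), which lets commissural axons cross the midline, stood at 445 and 97.7, 4.89-fold higher in iMNs.

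Netrins were the least abundant ligands in both cell types and the family with the largest difference in sum, 380 per kb in iMNs and 84.7 in i3Ns, 4.81-fold higher in iMNs. NTN4 (chr12:95657807-95791189, minus strand), a netrin that also binds laminins, had a mean normalized count of 628 in iMNs and 52 in i3Ns, a 12.9-fold ratio and the largest among the members. NTN1 (chr17:9021510-9244000, plus strand), the classical ligand of DCC, stood at 1010 and 225, 4.82-fold higher in iMNs. NTN4 and NTN1 were close to each other in iMNs, at 173 and 169 per kb. NTN3 and NTN5 were low in both, at 63.1 and 16.8 in iMNs and 54.4 and 14.8 in i3Ns.

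Of the netrin receptors outside the UNC5 family, DCC and NEO1 were higher in i3Ns and DSCAM in iMNs. DCC, the attractive netrin receptor, had a mean normalized count of 3339 in iMNs and 9109 in i3Ns, 2.55-fold higher in i3Ns, and its relative NEO1 stood at 9403 and 13674. The ratio of NTN1 to DCC per kb was 0.514 in iMNs and 0.0419 in i3Ns. DRAXIN, a secreted repellent that binds DCC and netrin, was nearly level at 6584 and 7330. DSCAM, a cell adhesion receptor that also binds netrin, stood at 2848 and 1248.

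The UNC5 receptors, which turn the netrin response into repulsion, differed in ratio, with UNC5A and UNC5B higher in iMNs and UNC5C and UNC5D higher in i3Ns. UNC5A (chr5:176810519-176880898, plus strand) had a mean normalized count of 1629 in iMNs and 397 in i3Ns, 4.39-fold higher in iMNs, and UNC5B stood at 1002 and 459, 2.34-fold higher in iMNs. UNC5C (chr4:95162504-95549206, minus strand) stood at 2126 and 10935, 4.8-fold higher in i3Ns, and UNC5D at 1558 and 5266, 3.15-fold higher in i3Ns. UNC5A held 44.8% of the family's level per kb in iMNs and 5.65% in i3Ns, and UNC5C held 22.6% and 60.2%. By mean normalized count UNC5C was the highest of the family in iMNs too. The ratio of UNC5C to UNC5A per kb was 0.505 in iMNs and 10.7 in i3Ns, the largest change among the 13 within-table ratios computed, whose pairs were chosen after the levels had been seen.

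**Figure D4:**
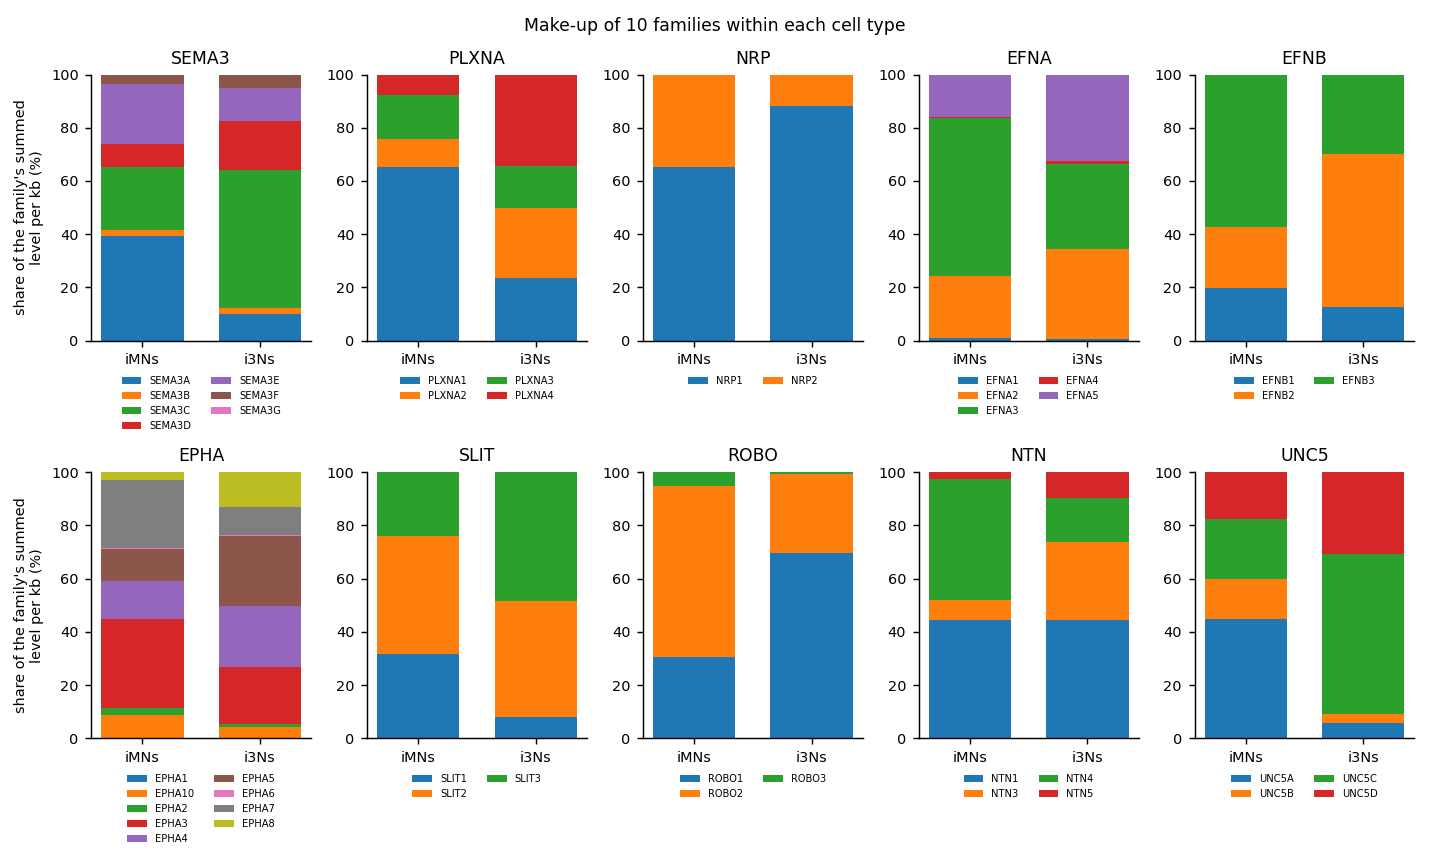
Share of each member in the summed level per kb of its family, within iMNs and within i3Ns, for 10 families. No scaling between the tables enters these shares, and the leading member differs between the bars in every family shown except NRP. NTN1 and NTN4 are close together in iMNs. EFNA2, EFNA5 and EFNA3 are close in i3Ns, as are SLIT3 and SLIT2, and EPHA5 and EPHA4.

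The effectors and other partners of these cue systems were broadly expressed in both cell types. All 48 of them were listed in both tables, and 46 reached 100 in each. Of the 47 that passed the filter, 2 were at least 4-fold higher in iMNs and 1 in i3Ns, shares near the 4.83% and 3.21% of all genes given above, and their median log2 ratio was 0.05. The collapsin response mediator proteins, which carry semaphorin signals to microtubules, were among the most abundant RNAs, with DPYSL2 at 71762 in iMNs and 90234 in i3Ns and DPYSL3 at 114448 and 112884. TRIO, an exchange factor used by DCC, stood at 26472 and 27445. The exceptions were NGEF, the exchange factor ephexin that acts under EphA receptors, at 1100 and 49.5, 23.8-fold higher in iMNs, ABLIM3, an actin-binding protein, at 5473 and 1236, 4.75-fold higher in iMNs, and FLRT3, a partner of robos and UNC5 receptors, at 356 and 3424, 8.98-fold higher in i3Ns. Of these exceptions NGEF was under 100 in i3Ns and passed the filter only through iMNs. RGMA, the repulsive ligand of NEO1, stood at 8642 and 3047, 3.04-fold higher in iMNs.

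Features that the choice by symbol did not use were also described. The genes of the members had a median span of 70.4 kb in GENCODE 44 on GRCh38, against 34.1 kb for the 16222 listed protein-coding genes. Of 71 members with a position, 34 spanned over 100 kb, 47.9%, beside 21.5% of those genes. RefSeq promoters on GRCh38.p14, from 250 bases before to 50 after the start, matched 61 of 71 symbols, and a CpG ratio (observed over expected) above 0.6 was found in 45 of them, 73.8%, beside 76.8% of 12530 promoters of listed genes.

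NGN2, the factor that makes i3Ns, binds short sequences called E-boxes, of which CAGATG is a known form, and these promoters were searched for CAGATG on both strands (CATCTG on the other), with no other motif searched. It was present in 4 of 61 member promoters, 6.56%, beside 10.1% of the 12530. Of the members past 4-fold, 2 of 8 on the i3N side (EPHB4 and PLXNA4) and 1 of 6 matched on the iMN side (SEMA4A) held it. The sites that lay wholly before the RefSeq start used, with 9 bases on either side, are shown because they belong to members that differ in opposite directions. They are written 5′ to 3′ on the strand of the gene with the motif in capitals, at chr7:100827740-100827763 (minus strand) for EPHB4 and chr1:156149820-156149843 (plus strand) for SEMA4A.
EPHB4: cacggcgcaCATCTGggcggtccc
SEMA4A: ctcctcccgCATCTGgagcccctc
The SEMA4A site lies inside the GENCODE span of the gene given above, since the RefSeq start used is further in, and a match is no evidence of binding.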

How the data were processed

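RNA-seq was made from total RNA after ribosomal RNA depletion, sequenced as paired-end reads, in 12 libraries of 4 groups (SCR and SMN-KD in iMNs and in i3Ns, 3 each). Per the labels and the paper's methods, the authors processed the reads with fastp, Salmon and DESeq2. Versions, transcript annotation, strand setting and the filter on low counts are not given in the sources used here, and the labels name hg38. The deposited signal used here is the authors' mean normalized count for each gene, scaled by DESeq2 size factors and averaged over 6 libraries, 1 table a cell type. The 4 other columns hold the authors' SMN-KD against SCR comparison (log2 fold change, standard error, p-value and adjusted p-value) and were not used. With means alone there was no depth per library, no replicate spread and no test.

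Members and lists were chosen with earlier results of these data known. Tables were joined on the Ensembl identifier. Ratios were divided by the median ratio between the tables, with no pseudocount, and kept where a mean normalized count reached 100 in at least 1 table. Large ratios were those of at least 4-fold. Lengths and positions came from GENCODE 44, and promoters from RefSeq on GRCh38.p14, the first listed for each symbol. The EPHB6 identifiers were summed for levels per kb and kept apart for ratios. Values are given for the leading 2 members of each family per kb in each cell type, every member past 4-fold and those in 1 table only, and other members were named after their values were seen. Alternatives changed the level that counts as expressed, the scaling, the fold, the filter, the identifiers and the transcript length. The step that scales the tables and applies the fold was tested on simulated data. The value of 1 marker gene is not reported here. Python 3.11.15, pandas and numpy were used.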

Additional observations from a re-analysis of the deposited data

How the results depend on the processing

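The counts of large ratios were the same, 7 in iMNs and 8 in i3Ns, with no scaling between the tables, with values divided by each table's sum, with the upper quartile, without a filter on low values and with identifiers summed by symbol, and the lists of names were the same in each. The scalings differed by at most 0.10 on the log2 scale, and they changed the sign of 3 of 70 ratios with no scaling or the table's sum and of 1 with the upper quartile, none of them past 4-fold. At 2-fold the counts were 16 in iMNs and 20 in i3Ns, with 44.6% of members and 78.6% of all genes within 2-fold. At 8-fold they were 1 (NTN4) and 1 (EPHA8). The share of all genes at 8-fold was not computed, so the excess of members over all genes at 4-fold is not shown to hold there. With at least 100 required in both tables, 4 members remained in iMNs and 7 in i3Ns, since NTN4, SEMA4A, ROBO3 and EPHB4 were under 100 in 1 cell type. The share of all genes under that filter was not computed. Families led by the same member were 4 with the longest annotated transcript also, and 7 with no division by length, where NTN1, UNC5C and EPHB2 led in both cell types. The number of expressed members was 67 and 65 at a level of 50, and 55 and 51 at 500, in iMNs and i3Ns. Leaving out a replicate was not possible. No paired analysis was possible because each table holds only means over its libraries. Low means carry the largest counting error, which cannot be given without counts.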
